A study of Mus musculus with 11 samples.

Results

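The genes described here are 46 mouse cell cycle genes: cyclins and cyclin-dependent kinases, the inhibitors of those kinases, the E2F and pocket protein regulators with Myc, the factors that license DNA replication, and the enzymes and regulators of S phase, G2 and mitosis. Their chromatin was read in CD8 T cells by ATAC-seq, which inserts sequencing adapters into accessible DNA with a transposase. A region is a stretch of the genome where at least 1 library had a called peak, with peaks that overlap by at least 1 bp merged over all libraries. A region was taken as a cell cycle region where the nearest protein-coding gene span within 100 kb (at distance 0 inside it) was 1 of the 46 genes, and 341 of 111041 regions (0.307%) met that rule. They lay near 45 of the 46 genes. Foxm1, a forkhead factor that drives G2 and mitosis genes, had none. Another gene was equally near for 11 of the 341. Nearness alone does not tell which gene a region acts on, and exons are not told apart from introns here, since the annotation used holds gene spans.

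Quiescent lymphocytes are held before S phase by the pocket proteins Rb1, Rbl1 and Rbl2, which bind E2F factors. D-type cyclins with Cdk4 or Cdk6, and then cyclin E with Cdk2, phosphorylate the pocket proteins and free E2F, which turns on the licensing and replication genes; a later wave, read through CCAAT boxes and the cell cycle homology region, drives mitosis. Naive and resting memory CD8 T cells are mostly quiescent, and antigen drives CD8 T cells into rapid division.

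The cells of all 11 libraries were CD8 T cells from mouse spleen with a Tcf7-YFP reporter; Tcf7 encodes TCF-1, a factor of naive and memory T cells. Day 9 cells had been through a YFP sort at day 3, more culture and another YFP sort at day 9. Of these, high_to_high cells were YFP-high at both sorts (2 libraries), low_to_high cells were low at day 3 and high at day 9 (3 libraries), and low_to_low cells were low at both (3 libraries). Effector cells had been activated ex vivo for 3 days (1 library). Antigen-experienced cells were splenocytes sorted as CD44+, CD62L+ and YFP+ (1 library), and naive cells were splenocytes sorted as CD44-, CD62L+ and YFP+ (1 library). The design asks how far cells that regain the reporter resemble those that kept it. Strain, age, sex, the stimulus and the structure of the reporter allele are not given in the sources used here. Whether replicates are separate animals or cultures is not said in the labels, and p-values therefore measure only the spread between these libraries.

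The value of a region is the authors' normalized tag count: the tags in the window of its strongest peak, per 10 M tags of the library. Depth ran from 20.8 to 59.97 M tags. Peaks held 9.01 to 10.2% of tags in YFP-high day 9 libraries, 10.4 to 12.5% in low_to_low, 9.08% in effector, 15.8% in antigen-experienced and 15.0% in naive cells, so deposited values were higher at most regions in the splenocytes, and comparisons below are centred on the median of the regions compared unless stated. A missing peak does not show closed chromatin: the weakest peak of a list held 8 to 14 tags, and the caller's filter on local signal removed 36.4 to 53.3% of putative peaks. In bulk cells, fewer open cells and weaker opening in each cell cannot be told apart. Regions near 5 or 6 of the 6 T cell marker genes (Cd3e, Cd3d, Cd3g, Cd8a, Cd8b1 and Cd2) were called in each library. The B cell gene Cd79a and the myeloid genes Csf1r and Cd68 had no region in any library.

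Promoter letters of the cell cycle genes were compared with those of all genes. RefSeq promoter windows of the files' build (GRCm38.p6, the patched form of mm10; 250 bases before to 50 after a start) were matched by symbol for 36 of the 46 genes, in 45 windows. The motifs were searched on both strands: E2F (the letters TTGGCGC or else TTCCCGC or else TTCGCGC or else TTGCCGC), the CCAAT box (CCAAT), the cell cycle homology region or CHR (TTTGAA or else TTCGAA), the E-box (CACGTG) and the GC box (GGGCGG), where matches of different motifs could overlap. E2F letters stood in 19 of the 45 windows (42.2%), against 9.64% of all 32619 promoter windows of that length. CCAAT stood in 62.2% against 37.6% of all windows, CHR letters in 35.6% against 19%, the GC box in 80% against 35.9% and the E-box in 8.89% against 7.2%. E2F letters were found in 6 licensing genes, among them Mcm6 with 5 matches and Mcm3 and Mcm5 with 3 each. CHR letters were found in 9 genes of S phase, G2 and mitosis, with 4 matches in Top2a (which unlinks DNA) and 2 in Cdk1 and Ccnb2. A match is a string of letters, not a shown binding site.

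The windows below are printed because the results turn on regions that overlap or adjoin them: Mcm5 and Mcm6 for the licensing genes, Plk1, Cdk1 and Ccnb2 for the mitosis genes, and Cdkn2c and the Arf start of Cdkn2a for the inhibitors. Each runs 5′ to 3′ along the gene, and capitals mark E2F and CHR letters on either strand. The Arf window overlaps a region with a peak in 5 libraries. The neighbouring region chr4:89294894-89295091, used in comparisons with naive cells, lies outside that window.
Mcm5 (chr8:75109259-75109558, plus strand): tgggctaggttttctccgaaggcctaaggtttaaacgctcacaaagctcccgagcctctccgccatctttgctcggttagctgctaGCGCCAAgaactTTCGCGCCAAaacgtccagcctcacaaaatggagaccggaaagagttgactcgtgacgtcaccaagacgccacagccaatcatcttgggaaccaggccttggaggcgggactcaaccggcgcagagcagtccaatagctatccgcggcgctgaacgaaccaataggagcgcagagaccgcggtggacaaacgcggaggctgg
Mcm6 (chr1:128359656-128359955, minus strand): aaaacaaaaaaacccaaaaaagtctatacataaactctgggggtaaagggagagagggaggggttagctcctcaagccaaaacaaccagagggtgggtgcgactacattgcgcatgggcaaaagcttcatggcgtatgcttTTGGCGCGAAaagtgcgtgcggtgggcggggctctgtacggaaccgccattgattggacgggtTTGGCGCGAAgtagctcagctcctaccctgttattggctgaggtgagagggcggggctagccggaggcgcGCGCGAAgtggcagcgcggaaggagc
Plk1 (chr7:122159185-122159484, plus strand): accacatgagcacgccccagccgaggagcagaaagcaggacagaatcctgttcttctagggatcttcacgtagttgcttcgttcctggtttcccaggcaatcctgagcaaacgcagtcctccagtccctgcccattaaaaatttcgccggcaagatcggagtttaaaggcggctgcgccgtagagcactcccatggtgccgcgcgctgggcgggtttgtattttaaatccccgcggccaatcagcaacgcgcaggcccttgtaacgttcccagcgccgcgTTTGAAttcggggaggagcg
Cdk1 (chr10:69352863-69353162, minus strand): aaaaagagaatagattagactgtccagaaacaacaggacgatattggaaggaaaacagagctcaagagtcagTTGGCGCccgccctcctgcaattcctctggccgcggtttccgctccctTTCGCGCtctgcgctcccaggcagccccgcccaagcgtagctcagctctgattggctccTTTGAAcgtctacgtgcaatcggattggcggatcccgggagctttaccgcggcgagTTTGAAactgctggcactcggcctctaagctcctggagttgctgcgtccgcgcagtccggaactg
Ccnb2 (chr9:70421505-70421804, minus strand): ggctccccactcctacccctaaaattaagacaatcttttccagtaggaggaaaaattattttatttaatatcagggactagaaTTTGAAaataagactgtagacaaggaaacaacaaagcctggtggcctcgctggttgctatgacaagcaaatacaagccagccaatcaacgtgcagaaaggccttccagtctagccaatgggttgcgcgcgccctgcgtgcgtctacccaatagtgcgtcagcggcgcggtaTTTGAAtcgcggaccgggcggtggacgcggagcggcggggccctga
Cdkn2c (chr4:109666707-109667006, minus strand): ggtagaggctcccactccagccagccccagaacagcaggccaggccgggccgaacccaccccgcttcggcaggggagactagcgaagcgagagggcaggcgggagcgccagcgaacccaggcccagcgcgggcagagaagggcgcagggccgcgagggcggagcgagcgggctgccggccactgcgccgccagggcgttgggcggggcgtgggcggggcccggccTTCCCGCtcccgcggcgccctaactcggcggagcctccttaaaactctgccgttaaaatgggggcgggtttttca
Cdkn2a Arf start (chr4:89294570-89294869, minus strand): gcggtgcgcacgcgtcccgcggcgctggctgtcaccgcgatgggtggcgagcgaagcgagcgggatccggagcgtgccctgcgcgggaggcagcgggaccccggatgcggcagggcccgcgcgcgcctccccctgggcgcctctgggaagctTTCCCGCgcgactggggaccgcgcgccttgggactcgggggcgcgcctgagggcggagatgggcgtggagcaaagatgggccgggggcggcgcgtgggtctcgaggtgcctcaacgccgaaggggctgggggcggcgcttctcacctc
Mcm5 and Mcm6, subunits of the replicative helicase, carry E2F letters and no CHR letters. Plk1, the polo kinase of mitosis, and Ccnb2, the cyclin B2 subunit of the mitotic kinase, carry CHR letters and no E2F letters. Cdk1, the mitotic kinase itself, carries both. Cdkn2c and the Arf start each carry a single E2F match.

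Regions were spread unevenly over the genes. Cdk6 had the most (31), then Rb1 (24), Ccnd2 and Cdc14a (22 each) and Myc (21), while Aurka, Ccna2, Cdkn2d, Mcm4, Plk1 and Top2a had 1 each. By role, the regulators E2F, pocket proteins and Myc held 115 regions, the G1 cyclins and kinases 97, the S, G2 and mitosis genes 74, the inhibitors 30 and the licensing genes 25. Of the 341 regions, 181 (53.1%) were inside the span of their gene (all regions with a gene: 64.1%), and 94 lay more than 10 kb away.

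A core of 83 regions near 39 genes was called in all 11 libraries, which is 24.3% of the cell cycle regions and 21.1% of all regions. At the other end, 105 (30.8%, against 36.6% of all regions) were called in 1 library: 68 in effector cells, 15 in high_to_high replicate 2 (the deepest library), 9 in naive cells (2.64%, against 4.79% of all regions) and the others in 6 libraries. In single libraries 48.7 to 61.0% of the cell cycle regions were called, and 41.7 to 59.5% of all regions. The cell cycle regions called numbered 174 and 208 in high_to_high, 170, 166 and 166 in low_to_high, 174, 192 and 175 in low_to_low, 200 in effector, 173 in antigen-experienced and 188 in naive cells. Of the 25 licensing regions, 12 were called in effector cells, where 59.5% of all regions were called. In each of the other libraries 16 to 23 were, beside 41.7 to 55.9% of all regions, and no test was made. The gap was uneven over the genes. Cdc6 alone held 5 of the 25 regions, with 1 called in effector cells and 3 to 5 in each other library. Mcm3 held 4, with 2 called in effector cells and 2 to 3 in each other library. The Mcm3 region 4822 bp from the span (chr1:20825134-20825331) was among those without a peak in effector cells. Its normalized tag counts were 33.5 and 31.4 in high_to_high, 29.6, 43.3 and 35.8 in low_to_high, 33.4, 35.5 and 32.7 in low_to_low, no peak in effector, 55.6 in antigen-experienced and 49.3 in naive cells. Mcm3 is a subunit of the replicative helicase.

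**Figure D1:**
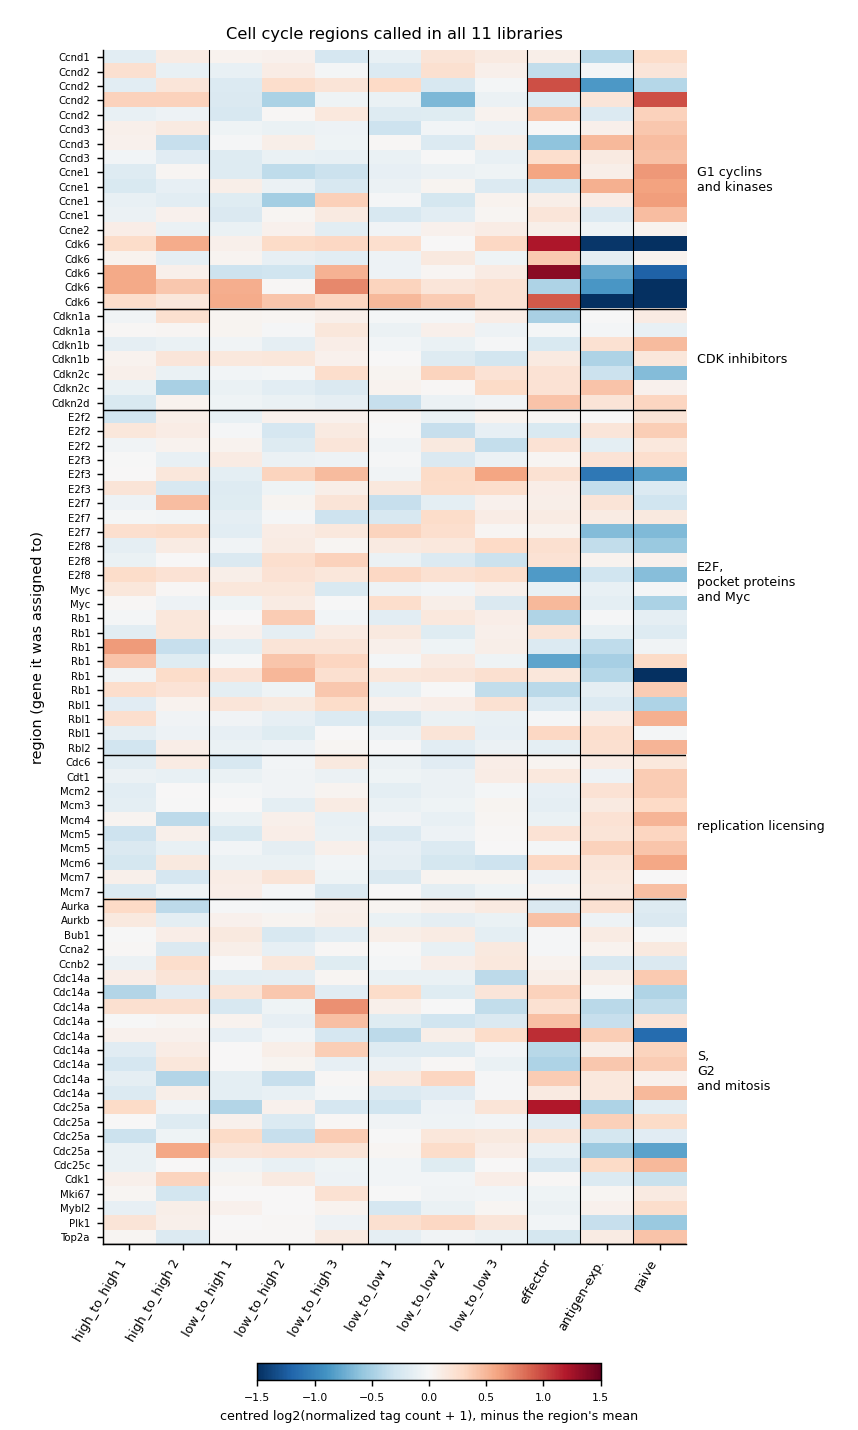
Heat map of the 83 cell cycle regions called in all 11 libraries (rows, grouped by role) over the libraries (columns); colour is the centred log2(normalized tag count + 1) minus the region's mean over libraries. The day 9 columns resemble each other, and the largest departures stand in the effector, antigen-experienced and naive columns.

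Promoter regions, those that overlap a RefSeq promoter window, had day 9 levels whose ranges overlapped between roles. No difference in level by role was tested. Peak windows have 1 width within a library (172 bp in 9 libraries, 136 bp in high_to_high replicate 2 and 132 bp in naive cells). Levels can thus be set side by side between genes of a library. Between libraries the widths differ, and values of naive cells and of high_to_high replicate 2 come from narrower windows. The part of this in the comparisons that use those 2 libraries was not tested, also after centring. Over the 8 day 9 libraries, the medians of the 7 licensing promoter regions called in all of them lay in a narrow range of normalized tag count, 42.0 to 61.2. Mcm5 stood at the top of that range, with 49.2 to 69.8 in the 8 day 9 libraries (median 61.2), 46.3 in effector, 122 in antigen-experienced and 107 in naive cells. Mcm2 stood at the bottom, with 34.7 to 51.4 in the 8 day 9 libraries (median 42), 29.3 in effector, 75.6 in antigen-experienced and 71.2 in naive cells. Between them were Mcm3 (day 9 median 56.1) and Mcm7 (43.6), and the ranges of neighbours in that order overlap.

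The 9 promoter regions of S, G2 and mitosis genes were more varied, with day 9 medians of 22.6 to 83.5. Top2a had 64.4 to 101 in the 8 day 9 libraries (median 83.5), 51.3 in effector, 135 in antigen-experienced and 140 in naive cells. Aurka, a kinase of the spindle poles, had 50.3 to 98.4 in the 8 day 9 libraries (median 78.2), 46.9 in effector, 131 in antigen-experienced and 80.9 in naive cells. Bub1, a kinase of the spindle checkpoint, was among the lowest. Its promoter region had 21.1 to 34.5 in the 8 day 9 libraries (median 24.2), 18.1 in effector, 41.1 in antigen-experienced and 31.2 in naive cells. The Aurka and Top2a ranges overlap at day 9, and both lie above the Bub1 range.

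Among the regulators, the promoter region of E2f3, an activator E2F, stood highest with 73.3 to 96 in the 8 day 9 libraries (median 89), 67.2 in effector, 153 in antigen-experienced and 133 in naive cells. Rbl2, the pocket protein p130 of quiescent cells, had 30.2 to 46.9 in the 8 day 9 libraries (median 40.6), 27.5 in effector, 73.3 in antigen-experienced and 74.1 in naive cells. The lowest were Rbl1 (day 9 median 26.4) and the repressor E2f7 (31.4). Of the inhibitors, Cdkn2d (p19Ink4d, which binds Cdk4 and Cdk6) had a day 9 median of 55.8, Cdkn1b (p27, a brake of quiescent T cells) 44.6 and Cdkn2c (p18Ink4c) 29.9. Among the G1 cyclins and kinases, the promoter window of Cdk4, a partner of the D cyclins, had a peak in all 11 libraries, split over a pair of alternately called neighbours, and no single region over a promoter window was called in all 8 day 9 libraries. Ccnd1, Ccnd2 and Ccne2 had no window in the RefSeq table.

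At day 9, YFP-high and YFP-low cells did not show a tested difference at any of the 123 cell cycle regions that entered the test. Of 123 regions (42 genes) called in all 8 day 9 libraries, limma on log2(normalized tag count + 1) called 0 at a Benjamini-Hochberg adjusted p under 0.05 for YFP-high (high_to_high and low_to_high, 5 libraries) against YFP-low (low_to_low, 3 libraries). Over all 34383 regions tested, 0.332% were called. The count was also 0 for high_to_high against low_to_low (0.596% of all regions), for low_to_high against low_to_low (0.032%) and for low_to_high against high_to_high (0%). Those shares are themselves unstable. The calls over all regions were 114, 205, 11 and 0 in that order. As each library was left out they ranged over 15 to 210, 68 to 315, 0 to 56 and 0 to 11. With a replicate block they numbered 213, 374, 55 and 4, and with the percentage of tags in peaks in the model they were 0 in each. That percentage was lower in every YFP-high than in every low_to_low library, so the model can hardly separate it from YFP state. The median standard error of the 123 regions for YFP-high against YFP-low was then 0.20, beside 0.12. At an unadjusted p under 0.05 in limma, the comparisons in that order gave 9 (3 higher), 9 (2 higher), 6 (3 higher) and 3 (2 higher) of the 123 regions, against 8.07, 9.92, 5.56 and 5.09% of all regions. The median log2 difference of the 123 regions was -0.02, -0.03, 0.00 and 0.03, beside -0.00, -0.01, -0.00 and 0.01 over all regions.

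The intervals bound what could have been missed. The 95% confidence interval lay within 2-fold either way at 123 regions for YFP-high against YFP-low and at 123 for low_to_high against low_to_low. It did so at 122 for the other 2 comparisons, where the exception was a Ccnd2 region. The median standard error was 0.12 to 0.15 on the log2 scale. Without centring, limma called 7 of the 123 regions in YFP-high against YFP-low, while 5.88% of all regions were called. For high_to_high against low_to_low it called 30 of the 123, while 21.6% of all regions were called. These cell cycle calls were all lower in the YFP-high cells. Deposited values of all regions were then shifted by -0.22 and -0.30 at the median. The share of tags in peaks was lower in the YFP-high libraries, and its part was not tested.

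**Figure D2:**
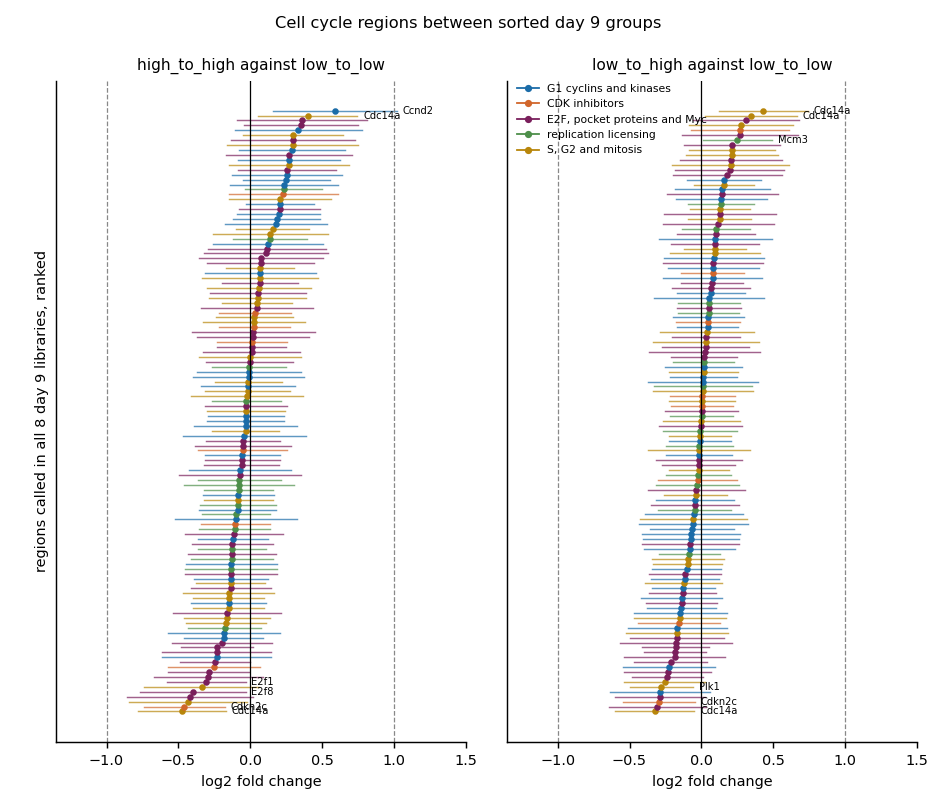
Log2 differences in normalized tag count with 95% confidence intervals at the 123 cell cycle regions called in all 8 day 9 libraries, for high_to_high against low_to_low and low_to_high against low_to_low; dashed lines mark 2-fold. Points cluster around 0, and the named regions with the lowest p values stay within 2-fold.

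The inhibitor Cdkn2c gave the lowest p in both comparisons that involve high_to_high cells or pooled YFP-high cells. Cdkn2c encodes p18Ink4c, which binds Cdk4 and Cdk6 and restrains T cell division. The region over its promoter window (chr4:109666816-109667062, 60 bp from the span) had normalized tag counts of 26.9 and 20.3 in high_to_high, 29.5, 30.3 and 26.4 in low_to_high, 35.4, 41.6 and 43.4 in low_to_low, 27.8 in effector, 66 in antigen-experienced and 42.6 in naive cells. All 5 YFP-high values lie below the 3 low_to_low values as deposited, on a scale where YFP-high libraries are lower at most regions. The centred log2 difference of YFP-high against YFP-low was -0.36 (SE 0.11; limma adjusted p = 0.220), that of high_to_high against low_to_low was -0.46 (SE 0.14; limma adjusted p = 0.150), and neither was called.

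Cdc14a, a phosphatase that opposes cyclin-dependent kinases, had regions on both sides. A promoter window of the gene overlaps chr3:116423788-116424047, with normalized tag counts of 19.9 and 15.8 in high_to_high, 21.6, 20 and 23.5 in low_to_high, 28.5, 39.1 and 26.4 in low_to_low, 23.7 in effector, 41.5 in antigen-experienced and 32.4 in naive cells. These were lower in all 5 YFP-high libraries than in any low_to_low library, at a log2 difference of -0.38 (SE 0.12; limma adjusted p = 0.241). Inside the same gene, chr3:116374566-116374763 had 15.3 and 16.6 in high_to_high, 18.3, 15.2 and 20.4 in low_to_high, 13, 17.3 and 14.2 in low_to_low, no peak in effector, 35.8 in antigen-experienced and 46.2 in naive cells. Here the YFP-high and low_to_low ranges overlap, the log2 difference was 0.42 (SE 0.14; limma adjusted p = 0.258), and splenocyte values were above all cultured ones. Another Cdc14a region (chr3:116341009-116341318) had 13.4 and 13.7 in high_to_high, 15.3, 14.4 and 19.9 in low_to_high, 13.9, 15.4 and 14 in low_to_low, 15.3 in effector, 17.9 in antigen-experienced and 22.1 in naive cells. Its day 9 values overlap between states (log2 difference 0.29). A further one (chr3:116331969-116332199) had 6.58 and 8.09 in high_to_high, 11.8, 14.8 and 8.64 in low_to_high, 13.5, 11.7 and 13.1 in low_to_low, 9.78 in effector, 16 in antigen-experienced and 9.46 in naive cells, and was 0.47 higher on the log2 scale in low_to_high than in high_to_high cells, not called.

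Among the E2F and pocket protein genes, no region was called either. The E2f2 region chr4:136189977-136190242 lies inside the gene of an activator E2F. It had 20.5 and 21.8 in high_to_high, 22.1, 24.2 and 25.9 in low_to_high, 30.6, 33 and 32.9 in low_to_low, no peak in effector, 34.1 in antigen-experienced and 27.7 in naive cells, with no overlap between YFP-high and low_to_low values (log2 difference -0.26, SE 0.11; limma adjusted p = 0.5). For E2f1, chr2:154569751-154569988 had 23.6 and 28.8 in high_to_high, 34.3, 36.3 and 26.6 in low_to_high, 37.4, 47.4 and 36.1 in low_to_low, 28.9 in effector, no peak in antigen-experienced and 51.8 in naive cells, and high_to_high values lie below those of low_to_low (log2 difference -0.31, not called). At Rb1, chr14:73303246-73303529 had 11 and 10.5 in high_to_high, 8.88, 10.1 and 13 in low_to_high, 9.83, 13 and 8.38 in low_to_low, 5.26 in effector, 14.1 in antigen-experienced and 17.2 in naive cells, with overlapping groups (log2 difference 0.35 for high_to_high against low_to_low). At Rbl1, which encodes p107, chr2:157147652-157147990 had 27.1 and 31.6 in high_to_high, 38, 39.6 and 39.6 in low_to_high, 37.7, 46.3 and 43.8 in low_to_low, 21.7 in effector, 44.7 in antigen-experienced and 30.9 in naive cells, and its high_to_high values lie below the low_to_high values (log2 difference of low_to_high against high_to_high 0.28, not called).

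The largest differences in size belonged to a weak region 25819 bp from Ccnd2, the cyclin D2 gene that growth signals induce in lymphocytes. This region (chr6:127178007-127178317) had 8.72 and 8.67 in high_to_high, 6.17, 5.42 and 6.72 in low_to_high, 7.38, 5.73 and 7.73 in low_to_low, 4.51 in effector, 13.4 in antigen-experienced and 19.9 in naive cells. Both high_to_high values exceed all other day 9 values, and both splenocyte values are higher still. The log2 difference was 0.59 for high_to_high against low_to_low (SE 0.21; limma adjusted p = 0.277) and -0.57 for low_to_high against high_to_high (limma adjusted p = 0.923). The Plk1 promoter region (chr7:122159192-122159442) had 35.8 and 32.6 in high_to_high, 34.2, 36.7 and 31.2 in low_to_high, 43.5, 54.6 and 43 in low_to_low, 24.7 in effector, 40.9 in antigen-experienced and 29.3 in naive cells. Low_to_high values lie below those of low_to_low, at a log2 difference of -0.28 (SE 0.11; limma adjusted p = 0.758). The Mcm3 region named above differed by 0.24 between YFP-high and YFP-low cells, with overlapping values.

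Low_to_high and high_to_high cells, which end with the same reporter state, had 3 of 123 regions at an unadjusted p under 0.05 in limma, but 9 without high_to_high replicate 1 and 11 without high_to_high replicate 2. Over all regions the shares were 5.09%, 7.24% and 6.85% in that order. Near Mki67, the gene of the Ki-67 antigen of dividing cells, chr7:135735746-135735981 (19296 bp away) had 56.6 and 45.4 in high_to_high, 61.1, 65.2 and 68.9 in low_to_high, 65.1, 75.4 and 65.7 in low_to_low, 43.7 in effector, 95 in antigen-experienced and 85.3 in naive cells. The low_to_high values exceed those of high_to_high, at a log2 difference of 0.23 that was not called. Inside Cdk6, chr5:3477852-3478123 had 36.2 and 27.3 in high_to_high, 27.9, 26.5 and 29 in low_to_high, 30.2, 30 and 37.4 in low_to_low, 14.1 in effector, no peak in antigen-experienced and no peak in naive cells, and the groups overlap (log2 difference -0.29).

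**Figure D3:**
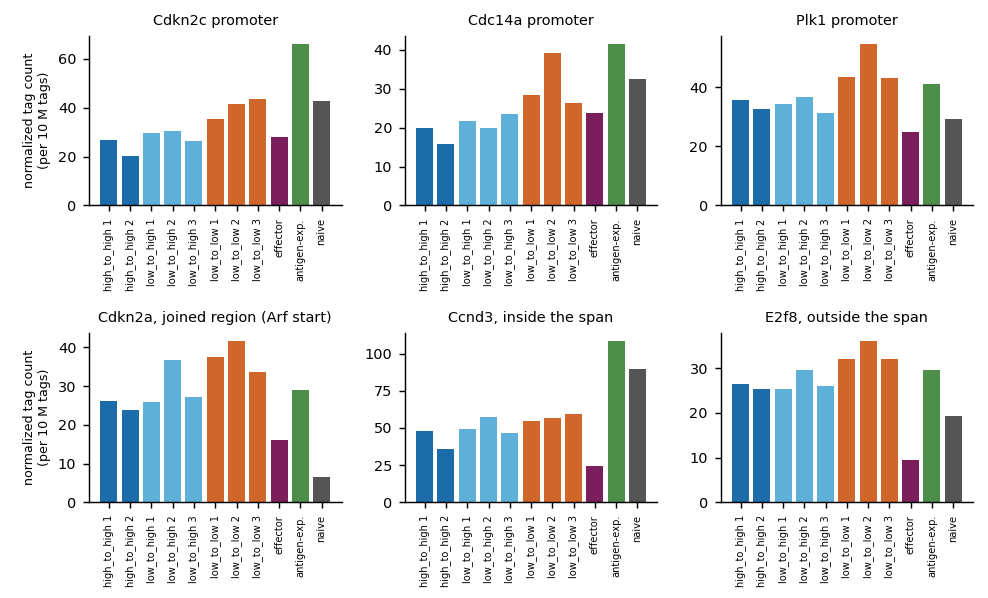
Deposited normalized tag counts (tags per 10 M, bars from 0) in each library at 6 cell cycle regions: the Cdkn2c, Cdc14a and Plk1 promoter regions, the joined Cdkn2a Arf start, a region inside Ccnd3 and a region outside E2f8. The 5 YFP-high bars stand below the 3 low_to_low bars at Cdkn2c and Cdc14a, and the effector bar is the lowest at E2f8 with 9.4.

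In effector cells set against naive cells, Cdk6 had 5 of the 15 cell cycle regions that were at least 2-fold higher. The comparison covers 107 regions (44 genes) called in both libraries. The 15 make up 14.0%, against 14.6% of all 32333 regions, and 3 were at least 2-fold lower in effector cells (2.80%, against 6.1%), on the centred log2 scale. These shares are near or below those of all regions. The median difference was -0.05. There is 1 library in each group, so no test was made. By role, 7 of 24 G1 cyclin and kinase regions were higher and 2 lower, 4 of 31 S, G2 and mitosis regions were higher and 0 lower, 3 of 32 regulator regions were higher and 1 lower, 1 of 10 inhibitor regions was higher, and 0 of 10 licensing regions passed 2-fold. Without centring, 6 were higher (5.61%, against 4.90% of all regions) and 31 lower (29.0%, against 35.5%), when all regions were shifted by -0.71 at the median. Centred over the regions of all 11 libraries, 17 were higher (15.9%, against 19.3%) and 1 lower (0.935%, against 3.95%). Marker regions moved with this comparison too. Near the 5 B cell genes, 2 of 3 compared regions were 2-fold higher (median difference 1.33), with no Cd79a region in either and no Cd79b region in effector cells, and the summed deposited level was 71.1 in effector cells and 66.3 in naive cells. Near the 6 T cell genes, 1 of 13 was higher and 2 lower (median -0.47), and the summed level was 437 in effector cells and 1310 in naive cells. Their part in the cell cycle values was not tested.

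**Figure D4:**
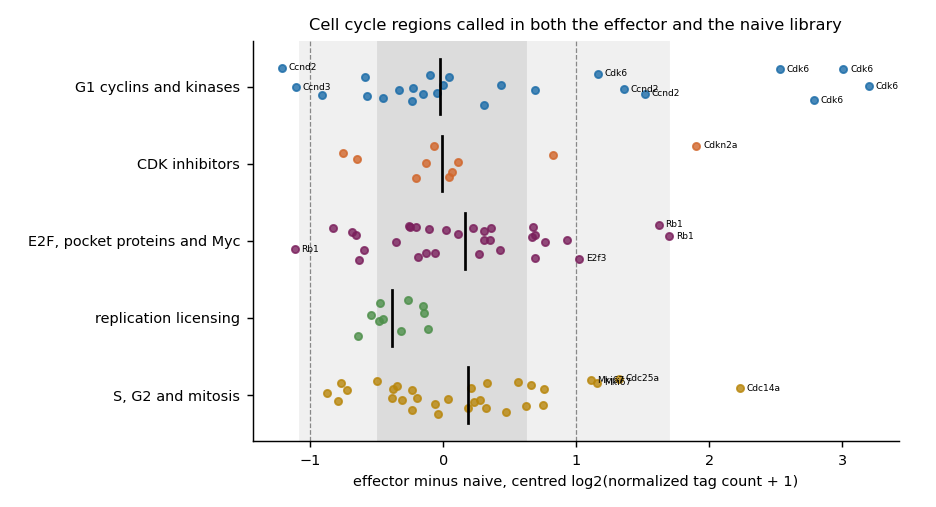
Centred log2 difference in normalized tag count, effector minus naive, at the 107 cell cycle regions called in both libraries, by role; black bars are role medians, dashed lines mark 2-fold, and grey bands hold the quartile range (dark) and the range from the lower to the upper tail (light, -1.08 to 1.70) of all 32333 regions. The Cdk6 points reach 3.20, and all 10 licensing points lie below 0.

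Cdk6 encodes a kinase that joins D-type cyclins and is induced when T cells are activated. Its region chr5:3509540-3509804 had normalized tag counts of 9.84 to 16.6 (median 14.1) in the 8 day 9 libraries, 30.8 in effector, no peak in antigen-experienced and 4.66 in naive cells, a centred effector against naive log2 difference of 3.20. The next, chr5:3301128-3301407, lies 39597 bp outside the gene and had 19.2 to 25.4 (median 23.7) in the 8 day 9 libraries, 32.7 in effector, 9.59 in antigen-experienced and 5.86 in naive cells (3.01). Inside the gene, chr5:3501778-3501997 had 21.8 to 36.1 (median 29.1) in the 8 day 9 libraries, 30.7 in effector, 8.52 in antigen-experienced and 6.53 in naive cells (2.78). These values are 3 of the 5 Cdk6 regions past 2-fold, and the other two differed by 2.53 and 1.16. Of the 6 Cdk6 regions called in both libraries, the one near the gene's start (chr5:3344349-3344585) did not pass, with 26.4 to 45.8 (median 31.9) in the 8 day 9 libraries, 31.9 in effector, 44.5 in antigen-experienced and 42.6 in naive cells.

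Outside Cdk6, higher values in effector cells were scattered. The Cdc14a region chr3:116380435-116380692 had 13.9 to 23.9 (median 16.5) in the 8 day 9 libraries, 28.9 in effector, 34.9 in antigen-experienced and 9.46 in naive cells (centred log2 difference 2.23). The Cdkn2a region chr4:89294894-89295091, 275 bp from the span at the Arf start, had 26.1 to 37.5 (median 36.8) in 3 of 8 day 9 libraries, 16.2 in effector, 29 in antigen-experienced and 6.53 in naive cells (1.90). At Rb1, chr14:73340044-73340365 had 10.3 to 12.7 (median 11.6) in 4 of 8 day 9 libraries, 13.4 in effector, no peak in antigen-experienced and 6.26 in naive cells (1.70), and chr14:73289938-73290279 had 15.9 to 28 (median 21.7) in the 8 day 9 libraries, 15.4 in effector, 20.7 in antigen-experienced and 7.73 in naive cells (1.62). Rb1 encodes the founding pocket protein, a brake on E2F. A pair of regions outside Ccnd2 also passed: chr6:127240215-127240540 had 18.8 to 32.5 (median 22.3) in 7 of 8 day 9 libraries, 38.9 in effector, 27.5 in antigen-experienced and 21.9 in naive cells (1.51), and chr6:127165621-127165993 had 5.42 to 9.34 (median 7.53) in the 8 day 9 libraries, 10.6 in effector, 5.54 in antigen-experienced and 6.4 in naive cells (1.36). The remaining ones past 2-fold lay near Cdc25a, a phosphatase that activates Cdk2, Mki67 (2 regions) and E2f3, at 1.02 to 1.32.

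Lower values in effector cells were fewer. The Ccnd2 region 25819 bp away had 5.42 to 8.72 (median 7.05) in the 8 day 9 libraries, 4.51 in effector, 13.4 in antigen-experienced and 19.9 in naive cells (centred log2 difference -1.21). Rb1 also had a region on this side, chr14:73253604-73253832, with 10.8 to 19.9 (median 15.7) in the 8 day 9 libraries, 5.45 in effector, 14.9 in antigen-experienced and 21.9 in naive cells (-1.12). Inside Ccnd3, the gene of cyclin D3, the main D cyclin of developing lymphocytes, chr17:47531560-47531757 had 35.9 to 59.7 (median 52.1) in the 8 day 9 libraries, 24.7 in effector, 109 in antigen-experienced and 89.5 in naive cells (-1.11). Those are the 3 regions past 2-fold. Next came chr7:38084875-38085131 near Ccne1, the cyclin E1 gene, with 34.3 to 58.7 (median 43.4) in the 8 day 9 libraries, 27.4 in effector, 98.2 in antigen-experienced and 86.3 in naive cells (-0.91), and Cdc25c, a phosphatase of mitotic entry, with 50 to 66.3 (median 57.3) in the 8 day 9 libraries, 37.2 in effector, 110 in antigen-experienced and 106 in naive cells (-0.77). Both are short of 2-fold. Within Cdc14a, chr3:116414453-116414876 had 6.97 to 12.4 (median 9.53) in the 8 day 9 libraries, 4.7 in effector, 19.8 in antigen-experienced and 16.1 in naive cells (-0.87), chr3:116398554-116398814 had 5.42 to 8.88 (median 7.22) in the 8 day 9 libraries, 3.48 in effector, 11.7 in antigen-experienced and 11.7 in naive cells (-0.79), and Rb1 chr14:73303246-73303529 had 8.38 to 13 (median 10.3) in the 8 day 9 libraries, 5.26 in effector, 14.1 in antigen-experienced and 17.2 in naive cells.

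The 10 licensing regions all had a centred difference below 0, with a median of -0.39. Promoters as a class sat at a similar level: the 7798 promoter regions of all genes had a median of -0.38, and 26.3% of them were above 0. The 26 promoter regions of cell cycle genes had a median of -0.21, with 8 above 0.

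Presence and absence of a peak changed at about the rate of all regions. In effector and not naive cells 93 regions were called (27.3%, against 30.4% of all regions), and in naive and not effector cells 81 (23.8%, against 22.6%). Regions called in effector cells and in no other library numbered 68 (19.9%, against 23.4%). The strongest was inside Cdk6 (chr5:3494771-3494943), with 59.6 in effector cells. Others called in effector cells alone were chr6:127157547-127157719 near Ccnd2 (40.9), chr8:91073831-91074003 inside Rbl2 (39.3), chr17:47515383-47515555 inside Ccnd3 (30.7) and chr13:29903344-29903516 near E2f3 (29.8). At E2f1, chr2:154570053-154570270 had 26.6 in effector and 49 in antigen-experienced cells.

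Of the regions called in naive and not effector cells, the strongest lay inside Ccnd3 (chr17:47508057-47508320). Its normalized tag counts were 34.3 and 39.9 in high_to_high, 43.8 and 35 in low_to_high (no peak in 1 of 3), 43.6 and 49.3 in low_to_low (no peak in 1 of 3), no peak in effector, 82.7 in antigen-experienced and 96.6 in naive cells. Another Ccnd3 region (chr17:47521619-47521815) had 26 and 28.1 in high_to_high, 29.6, 27.3 and 27.8 in low_to_high, 34.2, 38.2 and 31.8 in low_to_low, no peak in effector, 57.3 in antigen-experienced and 68.5 in naive cells. Inside Rbl2, chr8:91070558-91070965 had 33.7 and 38.9 in high_to_high, 41.3, 33.1 and 34.6 in low_to_high, 44.3, 52.3 and 43 in low_to_low, no peak in effector, 68 in antigen-experienced and 85.4 in naive cells. The Rbl2 region and the Ccnd3 region chr17:47521619-47521815 are thus called in both splenocyte libraries and all 8 day 9 libraries and missing in effector cells, a pattern of 26 cell cycle regions (7.62%, against 5.67% of all regions). The Rbl2 promoter region, 316 bp from that Rbl2 region, did have a peak in effector cells (27.5). Cdkn1b chr6:134921464-134921653 (56.2 in naive cells) was called in 2 day 9 libraries, the Ccne1 promoter region chr7:38107527-38107717 (52.6) in 5 of 8, and Mcm3 in all. A separate region 94 bp from the Ccne1 one had a peak in effector cells (32.7). Fewer followed the converse: 4 regions were called in effector cells and all 8 day 9 libraries but in no splenocyte library (1.17%, against 0.936%), near Ccnb2, Cdk6 (2 regions) and E2f8, and 5 in both splenocyte libraries but in no cultured library (1.47%, against 1.77%). Near 1 of those Cdk6 regions, a separate peak 98 bp away was called in both splenocyte libraries.

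Cdk6 had the most regions of the 46 genes, and 2 of the 5 called in all 11 libraries had every cultured value above both splenocyte values as deposited. Its span (chr5:3341004-3531008) and flanks held 31 regions, 25 of them inside, of which 5 were called in all 11 libraries and 14 in all 8 day 9 libraries. The region chr5:3460948-3461247 had 51.3 and 45.7 in high_to_high, 55.1, 40.5 and 60.5 in low_to_high, 51, 55.3 and 49.2 in low_to_low, 20.2 in effector, 31.1 in antigen-experienced and 14.5 in naive cells. All 8 day 9 values exceed those of the other three libraries. Likewise, chr5:3501778-3501997 had 23.4 and 21.8 in high_to_high, 31.5, 30.5 and 25.9 in low_to_high, 32.3, 36.1 and 27.7 in low_to_low, 30.7 in effector, 8.52 in antigen-experienced and 6.53 in naive cells. The cultured libraries, effector included, all stand above both splenocyte libraries. The flanking region chr5:3301128-3301407 had 20.3 and 24.8 in high_to_high, 19.2, 24 and 22.1 in low_to_high, 23.6, 23.8 and 25.4 in low_to_low, 32.7 in effector, 9.59 in antigen-experienced and 5.86 in naive cells. Again every cultured value is above every splenocyte value, and the effector value is the highest.

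Other Cdk6 regions behaved in other ways. At chr5:3355798-3356126 the counts were 26 and 18.1 in high_to_high, 15, 16.3 and 26.6 in low_to_high, 19.2, 25.1 and 23 in low_to_low, 37.7 in effector, 16.8 in antigen-experienced and 9.99 in naive cells, highest in effector and lowest in naive cells. At chr5:3477852-3478123, given above, a peak was called in all cultured libraries and in neither splenocyte library, and the effector value lies below all day 9 values. By contrast chr5:3344349-3344585, near the gene's start, had 30.2 and 26.4 in high_to_high, 32.9, 31.2 and 27.6 in low_to_high, 32.6, 45.8 and 33.9 in low_to_low, 31.9 in effector, 44.5 in antigen-experienced and 42.6 in naive cells. There both splenocyte values lie inside the day 9 range as deposited. Of the 2 cell cycle regions called in all 8 day 9 libraries and no other (0.587%, against 0.934% of all regions), both lie outside the Cdk6 span: chr5:3264929-3265353 had 11.2 to 15.9 in the 8 day 9 libraries (median 13.3), and chr5:3273192-3273381 had 9.1 to 20.4 in the 8 day 9 libraries (median 14.3). At no Cdk6 region did limma call a difference between the day 9 groups (0 of 14 regions).

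**Figure D5:**
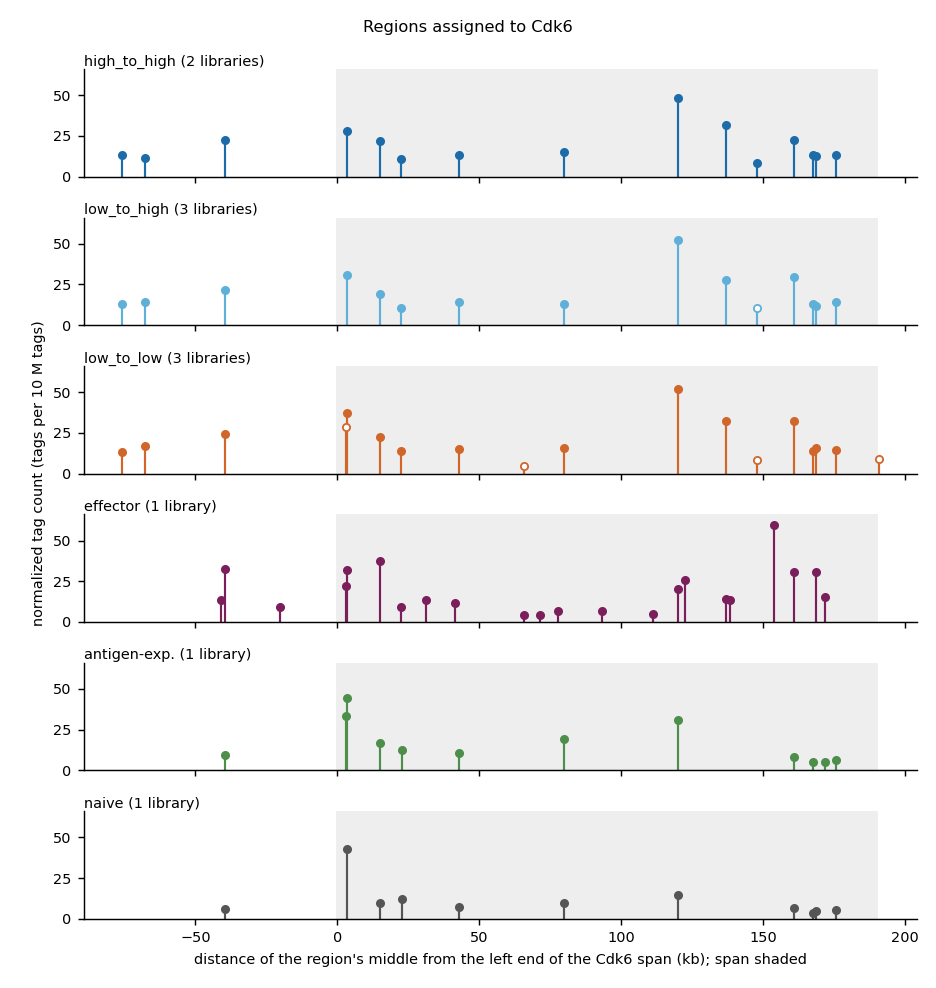
Mean deposited normalized tag count of each Cdk6 region by group, placed by distance along the locus; filled heads mark regions called in all libraries of a group, open heads regions called in some, and the grey bar is the gene span. The 3 day 9 groups share their tall lollipops, the effector row holds many regions of its own, and the antigen-experienced and naive rows are sparse.

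The 8 day 9 libraries were then set against the effector and naive libraries at the 83 regions called in all 11. Against effector cells, all day 9 values were higher at 16 regions (19.3%, against 25.7% of all 23471 regions) and lower at 22 (26.5%, against 27.7%). Against naive cells, all day 9 values were higher at 23 regions (27.7%, against 24.3%) and lower at 34 (41.0%, against 44.7%). These shares lie near those of all regions. There is 1 effector and 1 naive library, so no test was made. Without centring the split turned. Against effector cells 49 were higher (59.0%, against 59.3% of all regions) and 5 lower (6.02%, against 5.82%), when all regions were shifted by 0.43. Against naive cells 12 were higher (14.5%, against 13.4%) and 43 lower (51.8%, against 58.4%), when all regions were shifted by -0.47. Of the marker regions compared, all day 9 values were above naive cells at 2 of 2 near B cell genes and below them at 4 of 4 near T cell genes, and their part was not tested.

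E2f8, a repressor E2F that acts late in S phase, had the region farthest above effector cells. This region (chr7:48909065-48909317, 26992 bp away) had 26.5 and 25.3 in high_to_high, 25.3, 29.6 and 25.9 in low_to_high, 32, 36.1 and 32 in low_to_low, 9.4 in effector, 29.6 in antigen-experienced and 19.3 in naive cells. Every day 9 value is above the effector and the naive value. Next by the gap on the centred scale came Rb1 chr14:73253604-73253832, with 10.8 to 19.9 in the 8 day 9 libraries (median 15.7) and 5.45 in effector cells. Then came Cdk6 chr5:3460948-3461247, given above, with 40.5 to 60.5 in the 8 day 9 libraries and 20.2 in effector cells. Near Cdkn1a, the p21 gene, chr17:29081954-29082285 had 33.3 to 48.1 in the 8 day 9 libraries (median 40.4) and 20 in effector cells. It was followed by another Rb1 region, chr14:73237899-73238190, with 21.7 to 35.1 in the 8 day 9 libraries (median 24.6) and 13 in effector cells. The Ccnd3 region chr17:47531560-47531757 had 48.2 and 35.9 in high_to_high, 49.5, 57.3 and 46.6 in low_to_high, 54.7, 56.4 and 59.7 in low_to_low, 24.7 in effector, 109 in antigen-experienced and 89.5 in naive cells. So effector cells were lowest, day 9 cells came between, and splenocytes were highest there as deposited.

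On the other side, day 9 values lay below the effector value. Cdc25a chr9:109862548-109862809 had 8.63 to 15.5 in the 8 day 9 libraries (median 12), against 21.7 in effector cells. Cdc14a chr3:116380435-116380692 had 13.9 to 23.9 in the 8 day 9 libraries (median 16.5), against 28.9 in effector cells. Ccnd2 chr6:127165621-127165993 had 5.42 to 9.34 in the 8 day 9 libraries (median 7.53), against 10.6 in effector cells. Also below were Cdk6 chr5:3355798-3356126 and chr5:3301128-3301407, given above, and Ccne1 chr7:38061055-38061301, with 10.1 to 16.4 in the 8 day 9 libraries (median 12), against 15.4 in effector cells. For Ccne1 the ranges overlap as deposited, and the day 9 values are lower only once libraries are centred.

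Against naive cells, the regions farthest above were at Cdk6 (chr5:3501778-3501997, chr5:3301128-3301407, chr5:3460948-3461247 and chr5:3355798-3356126), Rb1 and Cdc14a. On the centred log2 scale, the gap between the naive value and the lowest day 9 value was 2.08, 1.84, 1.68 and 0.89 at the Cdk6 regions in that order, 1.43 at Rb1 and 0.77 at Cdc14a. The Rb1 region (chr14:73289938-73290279) had 15.9 and 20.2 in high_to_high, 21.1, 28 and 20.9 in low_to_high, 22.2, 26.9 and 24.1 in low_to_low, 15.4 in effector, 20.7 in antigen-experienced and 7.73 in naive cells. The naive value is the lowest. Farthest below were the Ccnd2 region 25819 bp away (gap -0.63), the Ccne1 regions chr7:38061055-38061301 and chr7:38084875-38085131, Cdc25c, Ccnd3 and Mcm6. Ccne1 chr7:38084875-38085131 had 34.3 to 58.7 in the 8 day 9 libraries (median 43.4), against 86.3 in naive cells. Ccnd3 chr17:47541946-47542316 had 10.3 to 16.7 in the 8 day 9 libraries (median 12.2), against 23.1 in naive cells. The Mcm6 promoter region (chr1:128359525-128359846) had 36.4 to 51.7 in the 8 day 9 libraries (median 46.1), against 93.1 in naive cells.

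Promoter regions were also set against naive cells by role. Of the 7 licensing promoter regions, 6 lay below the naive value in all day 9 libraries and 0 above, as did 67.4% of promoter regions of all genes. Of the 9 promoter regions of S, G2 and mitosis genes, 3 lay above and 3 below, while 8.75% of all promoter regions lay above. Those above were Plk1, given earlier, Cdk1 and Ccnb2. The Cdk1 promoter region (chr10:69352785-69353125) had 34.3 and 41.1 in high_to_high, 36.5, 41.7 and 32.6 in low_to_high, 37.2, 44.8 and 42.5 in low_to_low, 27.2 in effector, 47.3 in antigen-experienced and 36 in naive cells. As deposited, day 9 values lie on both sides of the naive value. The Ccnb2 promoter region (chr9:70421423-70421661) had 32 and 40.8 in high_to_high, 37.4, 44.8 and 31.7 in low_to_high, 39.3, 51.5 and 46.2 in low_to_low, 29.1 in effector, 48.4 in antigen-experienced and 40.9 in naive cells. Both stand above naive cells only after centring, by gaps of 0.26 and 0.04 on the log2 scale, while Plk1 does so as deposited (gap 0.48). With 1 naive library, no difference between the roles was tested. Further lists of cell cycle genes were counted over all their regions, not promoter regions alone. All day 9 values were higher at 7 and lower at 25 of 42 regions near other mitosis genes (median difference -0.33). They were higher at 4 and lower at 16 of 28 regions near other replication genes (-0.28). Of all 23471 regions, 24.3% were higher and 44.7% lower (-0.17).

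Cdkn2a encodes both p16Ink4a and Arf, brakes that act through Cdk4 and Cdk6 and through p53. Its Arf start was called as alternate neighbouring peaks, so the peaks within 346 bp of each other were joined. The joined region (chr4:89294635-89295322) had 26.1 and 23.9 in high_to_high, 25.9, 36.8 and 27.1 in low_to_high, 37.5, 41.7 and 33.7 in low_to_low, 16.2 in effector, 29 in antigen-experienced and 6.53 in naive cells. All 8 day 9 values exceed the effector value, and the naive value is the lowest. The p16 start (chr4:89282081-89282423) was weaker, with 7.17 and 6.17 in high_to_high, 8.39 and 6.5 in low_to_high (no peak in 1 of 3), 9.59, 11.2 and 8.81 in low_to_low, 6.58 in effector, 6.6 in antigen-experienced and no peak in naive cells. Downstream of the gene, chr4:89272442-89272745 (1728 bp away) had 15.5 and 17.2 in high_to_high, 17.1, 20.4 and 17.3 in low_to_high, 19.3, 23.3 and 20.6 in low_to_low, no peak in effector, 8.95 in antigen-experienced and no peak in naive cells. It was thus called in all day 9 libraries and in neither effector nor naive cells.

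Myc, the growth regulator that antigen induces in T cells, had 21 regions, of which 11 were called in a single library. Its promoter-side region (chr15:61985433-61985646) had 42 and 37.5 in high_to_high, 45.8, 49.1 and 33.4 in low_to_high, 41.4, 51 and 47.7 in low_to_low, 28.4 in effector, 57.7 in antigen-experienced and 51.6 in naive cells, lowest in effector cells as deposited. On the centred scale the effector value lay inside the day 9 range, and the effector against naive log2 difference was -0.13. A distal region at 47415 bp (chr15:62037776-62038151) had 14.3 and 13.3 in high_to_high, 14.8, 18.2 and 14.9 in low_to_high, 20.2, 21.5 and 14.8 in low_to_low, 16.6 in effector, 21.7 in antigen-experienced and 14.1 in naive cells. There the effector value lies inside the day 9 range as deposited, while on the centred scale all day 9 values were lower than in effector cells (gap -0.23) and higher than in naive cells (gap 0.27).

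Antigen-experienced and naive cells, both sorted from splenocytes, differed at few cell cycle regions. Of 152 regions (43 genes) called in both, 4 were at least 2-fold higher in antigen-experienced cells (2.63%, against 3.69% of all 44068 regions) and 2 at least 2-fold lower (1.32%, against 1.07%). Without centring 6 were higher (3.95%, against 5.45% of all regions) and 1 lower (0.658%, against 0.576%), when all regions were shifted by 0.16. Centred over the regions of all 11 libraries, 4 were higher (2.63%, against 3.89%) and 1 lower (0.658%, against 0.976%). The Arf start of Cdkn2a (chr4:89294894-89295091) had 29 in antigen-experienced cells, against 6.53 in naive cells (other libraries above; centred log2 difference 1.83). Cdc14a chr3:116380435-116380692 had 34.9 in antigen-experienced cells, against 9.46 in naive cells (1.62). Rb1 chr14:73289938-73290279 had 20.7 in antigen-experienced cells, against 7.73 in naive cells (1.15). The same 3 regions were past 2-fold in effector cells, which were compared with the same naive library, and the remaining one lies where the spans of Rbl2 and Aktip overlap (chr8:91111908-91112301), with 4.06 to 5.78 (median 4.77) in 4 of 8 day 9 libraries, no peak in effector, 12.4 in antigen-experienced and 4.8 in naive cells (1.04).

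On the lower side, Aurkb, a kinase of chromosome segregation, had 5.42 to 7.94 (median 7.02) in 4 of 8 day 9 libraries, no peak in effector, 5.75 in antigen-experienced and 13.9 in naive cells, at chr11:69053932-69054185 (-1.31). Cdc14a chr3:116415283-116415494 had 5.23 in 1 of 8 day 9 libraries, no peak in effector, 7.03 in antigen-experienced and 13.5 in naive cells (-1.02). Ccne1 chr7:38124158-38124467 had 3.75 to 6.78 (median 5.04) in 7 of 8 day 9 libraries, no peak in effector, 11.3 in antigen-experienced and 19.2 in naive cells (-0.88), short of 2-fold. With 1 library each, there is no test, and among peaks of at least 10 normalized tag counts in both libraries 0 of 112 regions passed 2-fold. Among all regions with such peaks, 1.85% were higher and 0.526% lower. Regions of B cell markers moved with this comparison: summed over the 5 genes they reached 178 in antigen-experienced cells, against 66.3 in naive cells, with 3 of 5 compared regions 2-fold higher and no Cd79a or Ms4a1 region in either. Their part in the cell cycle values was not tested.

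By presence, 21 regions were called in antigen-experienced and not naive cells (6.16%, against 5.49% of all regions) and 36 in naive and not antigen-experienced cells (10.6%, against 12%). In the first set, Myc chr15:61987061-61987240 had 52.6, E2f1 chr2:154570053-154570270 had 49 and Cdk6 chr5:3343861-3344103 had 33.4 in antigen-experienced cells. In the second, Cdkn1b chr6:134921464-134921653 had 56.2, E2f1 chr2:154569751-154569988 had 51.8 and Cdkn1b chr6:134917214-134917346 had 44.1 in naive cells. The E2f1 regions lie side by side, so each library had a peak at that start, in a different place.

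Of 3 further lists of cell cycle genes, given for context, few regions were called at day 9. For YFP-high against YFP-low, limma called 1 of 65 regions near brakes of the cycle and DREAM complex genes, 0 of 35 near other replication genes and 0 of 62 near other mitosis genes, with 7, 5 and 5 at an unadjusted p under 0.05. For high_to_high against low_to_low limma called 2, 0 and 1, all higher, with 9, 7 and 7 at an unadjusted p under 0.05. The other 2 comparisons gave 0 in each list, with 3, 3 and 4 regions at an unadjusted p under 0.05 in limma for low_to_high against low_to_low and 2, 6 and 4 for low_to_high against high_to_high. Over all regions, 8.07, 9.92, 5.56 and 5.09% had an unadjusted p under 0.05 in limma, in the order of those comparisons. The shares called were 0.332, 0.596, 0.032 and 0%. The region called both for YFP-high against YFP-low and for high_to_high against low_to_low was near Btg1, an antiproliferative gene of quiescent lymphocytes. Its region 14385 bp away (chr10:96602375-96602616) had normalized tag counts of 38.3 and 35.6 in high_to_high, 31, 31.8 and 30.5 in low_to_high, 27.3, 24.4 and 22.8 in low_to_low, no peak in effector, 66.9 in antigen-experienced and 45.8 in naive cells. The YFP-high values are above the low_to_low values in 5 of 5 libraries. The log2 difference was 0.63 for YFP-high against YFP-low (SE 0.12; limma adjusted p = 0.00593) and 0.85 for high_to_high against low_to_low (SE 0.14; limma adjusted p = 0.000957).

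Near Cdkn2b, which encodes p15Ink4b, chr4:89302076-89302388 (3901 bp away) had 19.6 and 16.2 in high_to_high, 12.3, 11.4 and 16.8 in low_to_high, 12.4, 12.2 and 6.87 in low_to_low, 7.8 in effector, 7.88 in antigen-experienced cells and no peak in naive cells. Both high_to_high values exceed the low_to_low values (log2 difference 1.04, SE 0.21; limma adjusted p = 0.00833). The region of Mad2l1, a spindle checkpoint gene, lies 41210 bp away (chr6:66493796-66494011) and had 26.5 and 19.3 in high_to_high, 25.7, 19 and 17.8 in low_to_high, 17.1, 16.5 and 15.7 in low_to_low, no peak in effector, 37.3 in antigen-experienced and 30.8 in naive cells (log2 difference 0.73, SE 0.17; limma adjusted p = 0.0342). Once the percentage of tags that fell in peaks was added to the model, no call at Btg1, Cdkn2b or Mad2l1 held (limma adjusted p = 0.991 to 0.999; log2 differences 0.32, 0.57, 0.84 and 0.40). That percentage was lower in every YFP-high than in every low_to_low library. This model can hardly separate it from YFP state, so no conclusion is drawn from those lost calls. Without centring the Mad2l1 call was lost too (limma adjusted p = 0.0757). Leaving out 1 library also lost calls in limma: Btg1 for YFP-high against YFP-low without low_to_low replicate 2 or 3 (adjusted p = 0.178 and 0.0642), Cdkn2b without high_to_high replicate 1 or low_to_low replicate 3 (0.136 and 0.0884), and Mad2l1 without high_to_high replicate 1, low_to_low replicate 2 or low_to_low replicate 3 (0.369, 0.233 and 0.116). The regions of these genes were named after their values were seen.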

How the data were processed

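ATAC-seq was made from sorted CD8 T cells and sequenced as paired ends of 74 cycles, per the labels' protocols. Bowtie2, HOMER 4.10 and DESeq2, with build mm10, stand in the submitters' processing notes; what DESeq2 was used for is not given in the sources used here. Peaks were called in each library without a control at a false discovery rate of 0.001, 4-fold over the surrounding 10 kb and a local Poisson p of 1e-04, per the file headers. The deposited signal is the normalized tag count, tags in the peak window per 10 M tags. It was used as log2(count + 1); fold changes on this scale understate changes of low values. Depth was 20.8 to 59.97 M tags, and the spread between libraries covers counting error. Peaks overlapping by 1 bp were merged, and a region took its strongest peak. Regions went to the nearest RefSeq gene span within 100 kb. Day 9 groups were compared by limma (version 3.58.1, under R 4.3.3, with lmFit and a trended eBayes) over 34383 regions called in all 8 day 9 libraries, each centred on its median, with Benjamini-Hochberg adjustment over all of them. Groups were fitted in 1 model of 3 means; high_to_high against low_to_low, low_to_high against low_to_low and low_to_high against high_to_high share libraries. Single libraries were compared without a test: 2-fold on the centred scale, or outside the range of the 8 day 9 libraries. The fit was tested on simulated data. Deviations of same-numbered low_to_high and low_to_low libraries correlated at 0.298, 0.136 and 0.161, and differently numbered ones at -0.188 to 0.0209. Those of high_to_high correlated with neither same-numbered group (-0.0407 to -0.0012). The labels do not say that equal numbers mark pairs, and the main fit treats libraries as unpaired. Calls with the number as a block are given beside it. The named regions are the 3 lowest p values per direction for each day 9 comparison, the 8 (effector against naive) or 3 (antigen-experienced against naive) largest differences per direction with at most 2 per gene, the 6 or 3 strongest peaks called in only 1 of a pair, the 6 farthest outside the day 9 range, and the 2 highest and lowest promoter regions per role; others were chosen after their values were seen. The genes and lists were chosen with earlier results of these data known. Peak sequences were not used here.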

Additional observations from a re-analysis of the deposited data

How the results depend on the processing

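The alternatives changed scaling, the pseudocount, the filter on low values, the value of a region, the overlap, the gene assignment, a covariate and the libraries used; joining neighbouring peaks was added after the data were seen. The count of called cell cycle regions stayed at 0 in the 4 day 9 comparisons under every alternative but no centring, which gave 7 for YFP-high against YFP-low and 30 for high_to_high against low_to_low, and leaving out each library gave 0 to 0. With the replicate number as a block, 0 cell cycle regions were called in each of the 4 comparisons and no named region changed its call, while the calls over all regions numbered 213, 374, 55 and 4, beside 114, 205, 11 and 0. Without centring, 6 named values passed the test: Cdkn2c (-0.58 and -0.75), Cdc14a (-0.60 and -0.77), E2f2 (-0.48) and E2f1 (-0.60). With neighbours joined, the Cdc14a promoter region turned to 0.0033 for high_to_high against low_to_low, because the joined region takes another, stronger peak. For effector against naive, 37 of 107 regions passed 2-fold without centring, 7 of 69 among peaks of at least 10 and 10 of 79 within 10 kb, beside 18 of 107. Over all regions the numbers were 13060 of 32333, 2101 of 17658 and 6681 of 32333, beside 6681 of 32333. For antigen-experienced against naive, 2 of 152 passed with a pseudocount of 5 and 0 of 112 among peaks of at least 10, beside 6 of 152. Over all regions the numbers were 1003 of 44068 and 704 of 29681, beside 2097 of 44068. Leaving out each day 9 library gave 38 to 42 regions outside the day 9 range for effector cells and 57 to 62 for naive cells. Each named value was counted once for every alternative it could be followed in. In the day 9 tests, 536 such counts kept their direction and side of the threshold. Of the rest, 12 lost a call (Btg1, Cdkn2b and Mad2l1), 6 gained one and 1 turned. For the single-library values, 81 counts moved by less than the spread between day 9 replicates (0.17 on the log2 scale) and 56 by more. The single libraries have no replicates to give a spread of their own. The calls over all regions moved over 1.5 times for YFP-high against YFP-low without high_to_high replicate 1 or 2 (44 and 66), low_to_high replicate 2 (186) or low_to_low replicate 1, 2 or 3 (210, 15 and 29). They did so for high_to_high against low_to_low without high_to_high replicate 2 (102) or low_to_low replicate 1, 2 or 3 (315, 68 and 117), for low_to_high against low_to_low without low_to_high replicate 1 or 3 (5 and 0) or low_to_low replicate 1, 2 or 3 (56, 0 and 0), and for low_to_high against high_to_high without high_to_high replicate 1 (11). Weak peaks rest on few tags, which limits what their absence shows.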

Other observations

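Some cell cycle regions called in 1 library and not in the next had a called neighbour very near. Among the 341 regions, 51 pairs of neighbours lay within 346 bp, the longest minimum distance between peaks that the caller allowed, and 14 of these pairs were never called together in a library. They include the starts of Cdk4, the kinase of cyclin D, of Ccnb1, the cyclin B1 gene, and of Rb1, where in each case 1 or the other peak was called in all 11 libraries. After such neighbours were joined, 290 regions remained, and 94 of them were called in all 11 libraries, which together covered all 45 genes, beside 83 regions of 39 genes before.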
